A study of Mus musculus with 16 samples.

Results

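The 6 genes Slc4a1, Ank1, Kel, Rhag, Rhd and Ermap encode proteins of the red cell membrane and its skeleton. They were taken by gene name from the array's own annotation, and all 6 passed the filter on dim probes, out of 24579 genes tested. They were read by 8 probes, 3 of them for Ermap. The study sorted VE-cadherin-positive cells from mice of mixed strain (B6/CBA and others) at mid-gestation (E11.5) and hybridised their RNA to 16 single-colour arrays. The 8 groups of 2 arrays combined the embryo proper or the yolk sac, the CD45- or the CD45+ gate, and the control or the Tie-2-Etv2 genotype. Tie-2-Etv2 embryos carry an Etv2 transgene that a Tie-2 Cre transgene switches on, and the labels do not name the alleles of the controls. Tie-2 is active in endothelium and in blood cells, so the transgene is not limited to a single cell type. For the transgenic CD45- cells of the embryo proper the sample titles say just Tie-2, whereas the genotype label is Tie-2-Etv2. Whether both samples of a group are separate embryos or pools is not labelled, and the p-values therefore cover no more than the spread between the samples at hand.

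Mature red cells carry a dense membrane in which the anion exchanger Slc4a1 (band 3) is tied through the adaptor Ank1 to the spectrin network beneath. Rhag and Rhd form the Rh complex, Kel is a surface endopeptidase held to the Xk protein by a disulfide bond, and Ermap is an immunoglobulin-family surface protein of erythroid cells. At this stage of mouse development large primitive red cells from the yolk sac fill the circulation, and VE-cadherin marks endothelium and the first blood cells that arise from it. Etv2 is a transcription factor that starts the endothelial and blood programmes in early mesoderm.

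Levels below are the log2 of an array's processed intensity minus its 75th percentile, so 0 is the brightness of a probe at that percentile. All 128 readings of the 8 probes were well above background, no spot was saturated, and 50.6 to 59.9% of probes per array were well above background. In each of the 4 populations the transgenic arrays both exceeded the controls in Etv2. Its log2 difference passed the limma test in yolk sac CD45- (6.36) and CD45+ cells (6.08). In the embryo it did not, at 2.50 in CD45- cells (limma adjusted p = 0.573) and 3.09 in CD45+ cells (0.123). In the yolk sac CD45- gate, for instance, Etv2 read −2.60 and −2.95 on control arrays and 3.90 and 3.26 on transgenic arrays. In yolk sac CD45+ controls it read −6.20, not well above background, and −2.09, so the 6.08 leans on a reading near the floor. The gap between these 2 readings also enters the pooled SE of 0.96 behind all 4 differences. Embryo CD45- cells read −0.14 and −0.13 in controls and 2.58 and 2.13 in transgenic cells. Cdh5, the gene of VE-cadherin, read 4.72 to 5.99 on CD45- arrays but −0.66 to 3.13 on CD45+ arrays, although both gates were sorted as VE-cadherin-positive. Ptprc, the gene of CD45, was not well above background in CD45- controls and read 2.06 to 3.56 on CD45+ arrays. The arrays are bulk samples, so fewer cells of a type and less RNA per cell cannot be told apart.

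Slc4a1 was above its arrays' 75th percentile in every group, with group means from 1.27 ± 0.28 (SD, n = 2) in yolk sac CD45- transgenic cells to 2.92 ± 0.56 in yolk sac CD45- controls. Kel had the same highest group, at 0.20 ± 0.46, and the same lowest group, at −1.61 ± 0.44. The highest mean of Rhd, 1.57 ± 0.62, was also in yolk sac CD45- controls, and its lowest, −0.22 ± 0.14, was in yolk sac CD45+ transgenic cells. Yolk sac CD45- controls thus held the highest mean for these 3 genes, and for 2 of the 3 Ermap probes. Ank1 was dim throughout, from −3.35 ± 0.80 in yolk sac CD45- transgenic cells to −2.19 ± 0.10 in yolk sac CD45+ controls. Rhag was dimmest, −3.84 ± 0.65, in embryo CD45- controls and brightest, −2.09 ± 0.47, in yolk sac CD45+ transgenic cells. When the 8 groups were put in order of their means, neighbouring groups overlapped in 6 or 7 of the 7 neighbouring pairs for each probe. The order within the middle of each range is therefore not resolved by these arrays.

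**Figure D1:**
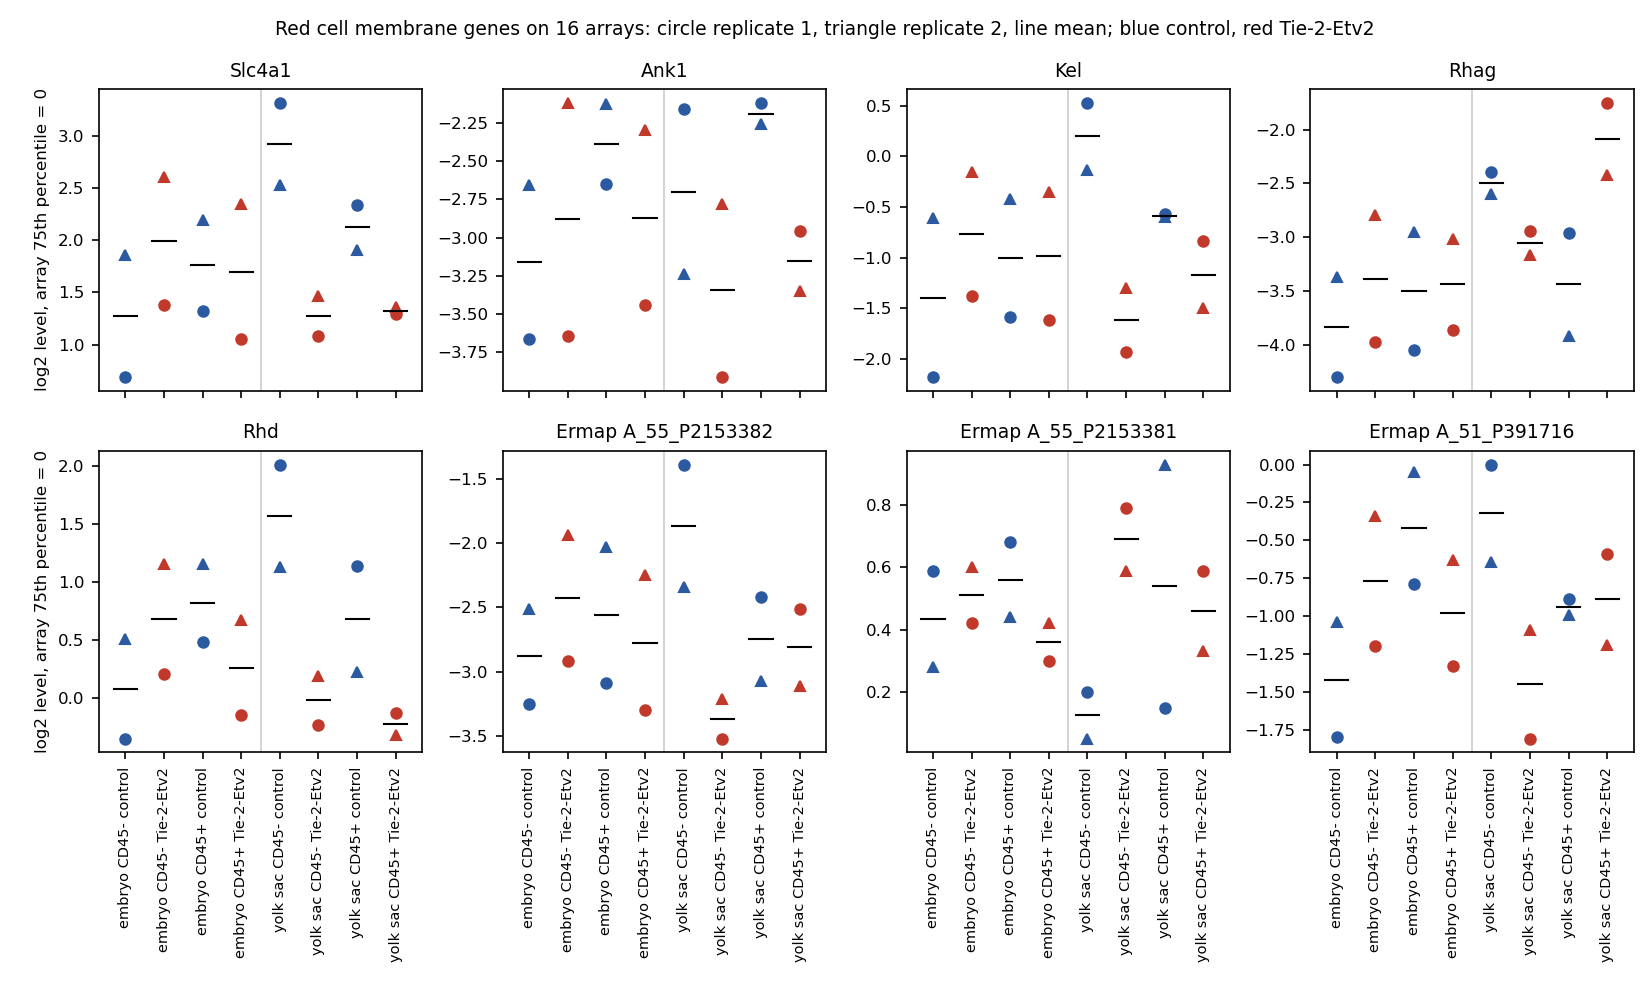
Each panel plots the log2 level of 1 probe (vertical axis, 0 at the array's 75th percentile; scales differ between panels) in the 8 groups, with circles for replicate 1, triangles for replicate 2 and a line at the mean. Slc4a1, Kel and Rhd were highest in yolk sac CD45- controls, at means of 2.92, 0.20 and 1.57, while Rhag peaked at −2.09 in yolk sac CD45+ Tie-2-Etv2 cells.

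The first question was whether turning on Etv2 changed these genes in each population. In yolk sac CD45- cells the transgene went with less RNA of 3 of the 6 genes, Slc4a1, Rhd and Kel, each by about 3-fold or more, and with more of none. In this comparison 15.8% of all genes tested were lower and 26.1% higher, so 3 of 6 lower stands against a broad change. Of the genes called, 62.3% were higher, and this share was 42.0% when arrays were scaled on the probes detected on all arrays. That scaling moved the median difference of all genes from 0.18 to −0.14. The median difference of the 6 genes was −1.12.

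Slc4a1, the chloride and bicarbonate exchanger, read 3.32 and 2.53 on the control arrays of yolk sac CD45- cells and 1.08 and 1.47 on the transgenic arrays. It fell 3.14-fold, a log2 difference of −1.65 ± 0.57 (SE; limma adjusted p = 0.0389). Ank1, its anchor to the skeleton, read −2.16 and −3.24 in controls and −3.91 and −2.78 in transgenic cells, and here the groups overlapped. Its difference of −0.65 ± 0.62 did not pass the test (adjusted p = 0.437), with a 95% interval from −2.02 to 0.72.

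Rhd, which in the mouse is the single gene of the Rh polypeptide, read 2.01 and 1.13 in yolk sac CD45- controls and −0.23 and 0.19 in transgenic cells. The groups did not overlap, and Rhd fell 3.01-fold (−1.59 ± 0.49; limma adjusted p = 0.0242). Its partner Rhag, an ammonium channel needed for the Rh complex to reach the surface, read −2.39 and −2.60 in controls and −2.94 and −3.17 in transgenic cells. Both transgenic readings lay below both controls, but the difference of −0.56 ± 0.54 did not pass the test (adjusted p = 0.44).

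Kel read 0.53 and −0.13 in yolk sac CD45- controls and −1.93 and −1.30 in transgenic cells. The groups did not overlap, and Kel fell 3.51-fold (−1.81 ± 0.64; limma adjusted p = 0.0443). In all, 5 of the 6 genes had groups that did not overlap here, as did 75.5% of all genes. The 3 calls rest on few arrays. Without control replicate 1 of this population the adjusted p became 0.208 for Slc4a1, 0.201 for Kel and 0.168 for Rhd. Without transgenic replicate 1 they became 0.171, 0.206 and 0.133. Without control replicate 2, transgenic replicate 2 or either yolk sac CD45+ transgenic array, which also feeds the pooled spread, only Rhd of the 3 stayed past the threshold. Without either yolk sac CD45+ control array Kel missed it (0.0547), as it did under quantile normalization (0.0609). With no filter on dim probes Slc4a1 (0.0603) and Kel (0.068) missed it.

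**Figure D2:**
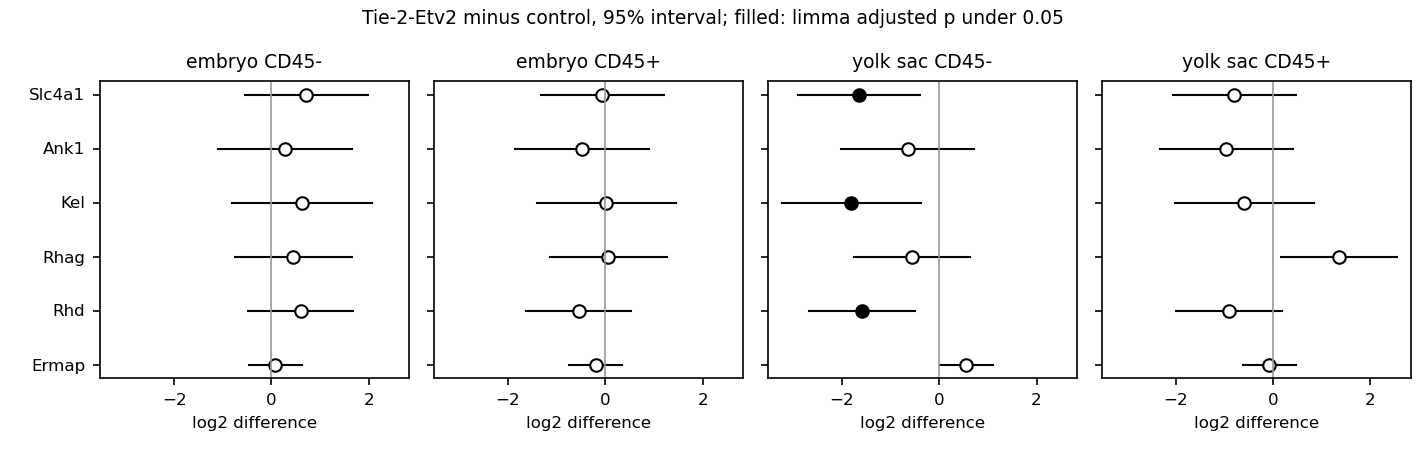
Points show the log2 difference of the mean levels, Tie-2-Etv2 minus control (horizontal axis), for each gene in the 4 populations, with 95% intervals from the fit and filled points where the limma adjusted p was under 0.05. The filled points are Slc4a1 at −1.65, Kel at −1.81 and Rhd at −1.59 in yolk sac CD45- cells, and Rhag at 1.35 in yolk sac CD45+ cells is open.

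The same arrays changed in the RNA of other blood cells. Summed over a list, with each gene's level put back on the linear scale in units of the array's 75th percentile, 14 pan-leukocyte genes stood at 4.87 to 5.30 in yolk sac CD45- controls and 383 to 530 in transgenic cells, and 14 of 14 were higher. The 16 megakaryocyte and platelet genes stood at 251 to 255 and at 1140 to 1560, with 14 higher and 1 lower. The 13 pan-endothelial genes stood at 1040 to 1170 and at 681 to 699, with 0 higher and 8 lower. Macrophage genes moved less, from 48.0 to 52.3 in controls to 59.1 to 60.6, with 3 of 14 higher and 4 lower. Ptprc was well above background in the transgenic cells but read only −2.92 and −3.43, below every CD45+ array. The part of these other cells in the fall of Slc4a1, Rhd and Kel was not tested.

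Ermap gave different answers from its 3 probes, which all lie on the minus strand of chromosome 4 (mm9). Probe A_55_P2153382 (chr4:118859754-118859813) read −1.39 and −2.34 in yolk sac CD45- controls and −3.52 and −3.21 in transgenic cells. It fell by 1.5 ± 0.53 on the log2 scale, with an adjusted p of 0.0452 when all 34126 kept probes were fitted one by one, a fit added after the data were seen. Probe A_51_P391716 (chr4:118848540-118848599) read 0.00 and −0.64 in controls and −1.81 and −1.09 in transgenic cells, a difference of −1.13 ± 0.44 (limma adjusted p = 0.0631). The brightest probe, A_55_P2153381 (chr4:118849093-118849152), stood for the gene in the fit over genes and went the other way. It read 0.20 and 0.05 in controls and 0.79 and 0.59 in transgenic cells, a difference of 0.56 ± 0.25 that did not pass the test (adjusted p = 0.0926). The mean of the 3 probes gave −0.69, also short of the threshold (adjusted p = 0.116).

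The probes that agreed lie 11154 bases apart, and the probe that did not lies 493 bases from one of them and 10601 from the other. Over the 16 arrays, which share 2 slides and 8 groups, the agreeing probes correlated at r = 0.893, and the brightest probe correlated at −0.478 and −0.303 with them. Its whole range over 16 arrays was 0.87, against 2.13 and 1.81. The exon that each probe reads is not annotated in the files. The sequence of the probe that fell past the threshold, and that of the Kel probe at chr6:41636474-41636533 (mm9, minus strand), are shown because 2 of the declines rest on these letters. Both are written 5′ to 3′ in the transcript's sense as the array files give them, in lower case with no part singled out.
Ermap A_55_P2153382: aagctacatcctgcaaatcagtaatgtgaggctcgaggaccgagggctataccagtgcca
Kel A_51_P299062: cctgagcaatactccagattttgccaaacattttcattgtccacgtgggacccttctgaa

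The other members were each read by a single probe. The Slc4a1 probe lies at chr11:102210256-102210315 on the minus strand, the Ank1 probe at chr8:24259068-24259127, the Rhag probe at chr17:40976929-40976988 and the Rhd probe at chr4:134452018-134452077, the last 3 on the plus strand (mm9). The RefSeq promoter table (GRCm38.p6) held 4 of the 6 genes, Kel, Rhd, Rhag and Ermap. The 250 bases before each start, as the table sets the start, were searched on both strands for AGATAA and TGATAA, the letters that GATA factors read, and for CCNCNCCC and CCGGAA, which Klf1 and Etv2-type factors are known to read. These windows and motifs were chosen with the results known.

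AGATAA or TGATAA occurred in all 4 windows, and in 16.6% of the 32851 promoters of the table. Kel held AGATAA 56 bases and TGATAA 19 bases before its start, Rhd held AGATAA 43 bases before it, and Ermap and Rhag held TGATAA on the opposite strand, 67 and 31 bases before it. The distance runs from the match's first base to the table's start. The annotated gene can begin before that start, and the Rhag match lies inside the gene so annotated. Neither CCNCNCCC, present in 45.9% of all windows, nor CCGGAA, present in 12%, occurred in the 4. These are matches of letters in a window and not sites. The upstream stretches of Kel and Rhd are shown because both genes fell in yolk sac CD45- cells while Gata1 rose, with the matches in capitals. Whether Gata1 acts through these letters was not tested. The 2 stretches are chr6:41704335-41704575 on the minus strand and chr4:134864286-134864535 on the plus strand (GRCm38.p6), 5′ to 3′ in the direction of transcription. The Kel stretch is printed only up to where its annotated gene begins, 241 of the 250 bases searched, so the distances given above exceed those to its last letter.
Kel upstream: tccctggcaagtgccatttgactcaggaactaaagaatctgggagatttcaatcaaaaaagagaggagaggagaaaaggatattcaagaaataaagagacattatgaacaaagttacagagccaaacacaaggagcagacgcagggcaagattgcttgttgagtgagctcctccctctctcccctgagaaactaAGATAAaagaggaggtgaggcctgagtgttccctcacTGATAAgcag
Rhd upstream: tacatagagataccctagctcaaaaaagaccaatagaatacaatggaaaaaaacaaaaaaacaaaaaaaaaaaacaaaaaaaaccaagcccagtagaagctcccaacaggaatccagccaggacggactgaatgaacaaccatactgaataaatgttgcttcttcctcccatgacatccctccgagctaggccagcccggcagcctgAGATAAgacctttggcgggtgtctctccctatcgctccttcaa

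Gata1, the GATA factor of red cells and megakaryocytes, read 0.25 and −0.35 in yolk sac CD45- controls and 5.67 and 5.23 in transgenic cells, a log2 difference of 5.50 (limma adjusted p = 1.27e-05). Of the 9 genes in the list of erythroid transcription factors and the erythropoietin receptor, 7 rose there and none fell. They included Gfi1b (6.08), Nfe2 (4.2), Tal1 (2.80) and Epor (1.22). Klf1, a red cell factor that binds CACC-type motifs, read −1.57 and −2.24 in controls and −1.91 and −2.03 in transgenic cells, with overlapping groups and a difference of −0.07 (adjusted p = 0.941). The 3 membrane genes that fell therefore did so on arrays where most of these factors rose.

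Globin and heme genes split. Hba-a1, the adult alpha globin, read 8.21 and 7.61 in yolk sac CD45- controls and 6.34 and 6.90 in transgenic cells. The groups did not overlap, and the difference of −1.29 did not pass the test over 16 arrays (limma adjusted p = 0.113), but did over the 8 yolk sac arrays alone (0.021). Alas2, the first enzyme of heme synthesis in red cells, gave −1.64 with adjusted p = 0.0972, and 0.0178 over the yolk sac arrays alone. Embryonic Hba-x gave −1.54, with 0.137 and 0.0204. Of the 15 globin and heme genes tested 7 rose and 2 fell, against 26.1% of all genes higher and 15.8% lower. The summed level of that list was 1270 to 1810 in controls and 778 to 1100 in transgenic cells.

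In yolk sac CD45+ cells none of the 6 genes passed the test, against 18.1% of all genes higher and 14.4% lower, and at an unadjusted p under 0.05 there was 1, Rhag. Rhag read −2.96 and −3.92 in controls and −1.75 and −2.42 in transgenic cells. The groups did not overlap, and Rhag stood 2.55-fold higher (1.35 ± 0.54; limma adjusted p = 0.0818), with a 95% interval from 0.16 to 2.54. Fitted on the 8 yolk sac arrays alone, this difference passed (adjusted p = 0.0374). Slc4a1 read 2.34 and 1.91 in controls and 1.29 and 1.36 in transgenic cells, a difference of −0.80 ± 0.57 (adjusted p = 0.32). Rhd gave −0.90 ± 0.49 (0.191), Ank1 −0.96 ± 0.62 (0.27) and Kel −0.59 ± 0.64 (0.528), each with both transgenic readings below both controls. In all, 5 of the 6 had groups that did not overlap, as did 65.7% of all genes.

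On the same yolk sac CD45+ arrays the summed macrophage level was 1850 to 2470 in controls and 213 to 239 in transgenic cells, with 0 of 14 genes higher and 12 lower. The pan-endothelial sum was 53.8 to 55.2 and 347 to 355, with 11 of 13 higher. The part of this change in the members' values was not tested.

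In the embryo proper none of the 6 genes passed the test in either gate, and none had an unadjusted p under 0.05. In embryo CD45- cells, where 1.25% of all genes were higher and 0.0325% lower, all 6 differences were positive, from 0.08 for Ermap to 0.72 for Slc4a1, with limma adjusted p from 0.976 to 1. The 95% interval of Slc4a1 ran from −0.54 to 1.98, so a rise as large as 3.95-fold lies within it. In embryo CD45+ cells, where 2.31% were higher and 0.732% lower, the differences ran from −0.55 for Rhd to 0.06 for Rhag. There 75.9% of the calls were higher, and 58.5% after normexp background correction. Embryo readings overlapped between genotypes for all 6 genes in the CD45- gate and for 5 in the CD45+ gate, while 33.6% and 43.3% of all genes did not overlap.

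The comparison of genotype effects asked whether the fall was larger in the yolk sac than in the embryo. In CD45- cells the yolk sac effect minus the embryo effect was −2.19 ± 0.69 for Rhd (limma adjusted p = 0.0565), −2.37 ± 0.80 for Slc4a1 (0.0708) and −2.44 ± 0.91 for Kel (0.0947). None of the 6 genes passed, against 15.9% of all genes in either direction after adjustment. At an unadjusted p under 0.05 there were 3, and the share of all genes at that level was not computed. Between the gates of the yolk sac, the CD45+ effect minus the CD45- effect was largest for Rhag, 1.91 ± 0.76 (adjusted p = 0.118). Again none of the 6 passed, against 18.4% of all genes after adjustment, and 1 had an unadjusted p under 0.05, likewise without such a share. The other 2 such comparisons called none of the 6, with lowest adjusted p of 0.8 and 0.42, against 1.14% and 3.13% of all genes. None of their members had an unadjusted p under 0.05. A difference between populations in the response of these genes was therefore not shown.

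Between the gates no difference of the 6 genes was shown in the main fit. In controls the CD45+ minus CD45- differences ran from 0.13 to 0.77 in the embryo and from −0.94 to 0.51 in the yolk sac, and in transgenic cells from −0.42 to 0.01 and from −0.23 to 0.97. None passed the limma test in any of the 4 comparisons, and none had an unadjusted p under 0.05. The shares of all genes called in either direction were 36.6% and 38.4% in embryo and yolk sac controls, and 30.3% and 10.4% in transgenic cells. In the same control comparisons 14 of 14 pan-leukocyte genes were higher and 13 of 13 pan-endothelial genes lower in the CD45+ gate. The 95% interval for Slc4a1 ran from −0.77 to 1.75 in embryo controls and from −2.06 to 0.46 in yolk sac controls. A rise of 3.35-fold in embryo controls and a fall to 0.24 of the CD45- level in yolk sac controls lie within these intervals. The fit took the arrays as unpaired. With a term for the replicate number in each tissue added (the replicate block), Slc4a1, Rhag and Rhd were called lower in the CD45+ gate of yolk sac controls. Each gate lay in its own column of the slides, so gate and column cannot be told apart.

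Between the tissues, 4 of the 6 genes stood higher in the yolk sac in CD45- controls at an unadjusted p under 0.05. None passed after adjustment, where 5.45% of all genes were higher and 6.09% lower. The share of all genes at the unadjusted level was not computed, so the count of 4 has no background here. Slc4a1 read 0.69 and 1.86 in the embryo and 3.32 and 2.53 in the yolk sac, a difference of 1.65 ± 0.57 (limma adjusted p = 0.0907). Rhd gave 1.49 ± 0.49 (0.078), Kel 1.59 ± 0.64 (0.142) and Rhag 1.34 ± 0.54 (0.14). In the other tissue comparisons none passed and the lowest adjusted p was 0.128, for Rhag in CD45+ transgenic cells, at 1.35 ± 0.54. The shares of all genes called in either direction there were 30.5% in CD45- transgenic cells, 1.71% in CD45+ controls and 12.6% in CD45+ transgenic cells. In these 3 comparisons Rhag was the only member with an unadjusted p under 0.05, in the last of them. All embryo arrays shared 1 scan date in the file headers and all yolk sac arrays another, taken here as 2 slides. Tissue and slide therefore cannot be told apart.

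The embryo arrays shared a further pattern. In all 4 embryo groups the array numbered 2 read higher than the array numbered 1 for every member probe except the brightest Ermap probe. The gap was 0.88 to 1.31 for Slc4a1, 1.17 to 1.57 for Kel, 0.84 to 1.19 for Rhag, 0.67 to 0.94 for Rhd and 0.52 to 1.53 for Ank1. Hba-a1 (0.97 to 1.59), Hba-x (1.49 to 1.67) and Alas2 (1.19 to 1.89) had the same gap, whereas Cdh5 ranged from −1 to 0.33 and Ptprc from −0.68 to −0.10. Of all 24579 genes, 11.2% were higher on the array numbered 2 in all 4 groups and 0.594% by at least 0.5, a size chosen after seeing the members. The yolk sac arrays did not share it, with Slc4a1 gaps from −0.79 to 0.39. There Rhag was lower on the array numbered 2 in all 4 groups (−0.96 to −0.21). Kel, Rhd and Ank1 were higher on it in just 1 of the 4. The embryo gaps enter the SD of each embryo group and widen the intervals given above. The part of the red cell RNA of a sample as a whole in these gaps was not tested.

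Across the 16 arrays Slc4a1, Kel and Rhd moved together and with the globins. Pearson's r of the log2 level was 0.959 between Slc4a1 and Kel, 0.941 between Slc4a1 and Rhd and 0.874 between Kel and Rhd. Among all other genes Slc4a1 ranked first by likeness to both Kel and Rhd. The gene most like Slc4a1 was Hba-a1 (0.966), followed among genes outside the 6 by Hbq1b (0.948), a theta globin, and Alas2 (0.937). Among genes outside the 6, Kel was most like Hba-a1 (0.917), the mitochondrial iron carrier Slc25a37 (0.906) and Hba-x (0.899). Rhd, on the same terms, was most like Tssk1 (0.894), Hbq1b (0.888) and Cldn13 (0.874). The arrays share slides, groups and the embryo pattern above, so these values describe this set of arrays and carry no test.

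Ank1 and Rhag followed less closely. Ank1 reached 0.748 with Slc4a1 and was most like Zfp960 (0.791), Gm5165 (0.757) and C5ar2 (0.746). Rhag reached 0.450 with Slc4a1, and its nearest genes were Nsun4 (0.862), Otop1 (0.822) and 3110040M04Rik (0.819), none of them globins. The brightest Ermap probe ran at −0.448 with Slc4a1 and was most like Rgs6 (0.821), Tcap (0.801) and 1110002J07Rik (0.764), whereas its other probes ran at 0.898 and 0.817 with Slc4a1. The mean profile of the 6 genes was most like Hbq1b (0.928), Hba-a1 (0.920), Slc25a37 (0.912), Hba-a2 (0.905), Alas2 (0.888) and Hba-x (0.886). Tssk1 (0.866), Hbb-y (0.821) and Zfp39 (0.809) were also among the 10 most like it. With Gata1, in contrast, Slc4a1 ran at r = −0.303.

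**Figure D3:**
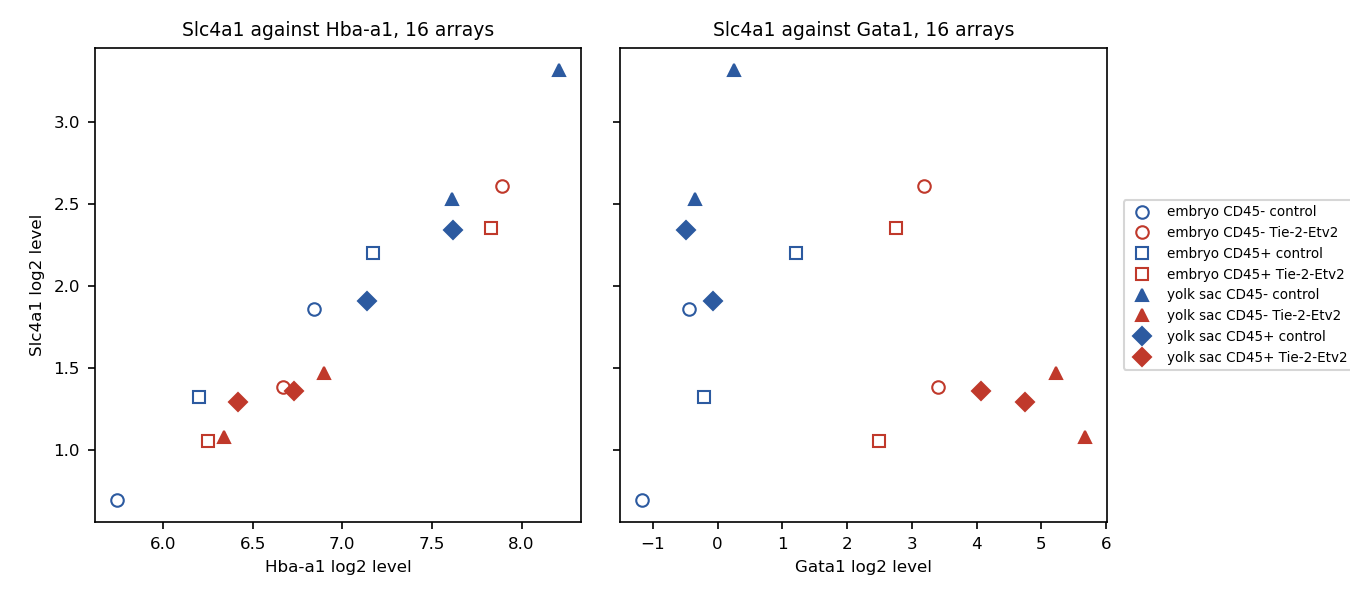
The log2 level of Slc4a1 (vertical axis) is plotted against that of Hba-a1 (left) and Gata1 (right) on the 16 arrays, open symbols for the embryo and filled for the yolk sac, blue for control and red for Tie-2-Etv2. Slc4a1 rises along Hba-a1 (r = 0.966), while the yolk sac transgenic arrays join Gata1 levels of 4.07 to 5.67 to Slc4a1 levels of 1.08 to 1.47.

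The rest of the red cell surface did not share the direction of the 6 genes. Of 28 other membrane and skeleton genes, 7 were higher and 8 lower in yolk sac CD45- transgenic cells, 7 higher and 6 lower in yolk sac CD45+ cells, 2 higher and 0 lower in embryo CD45- cells, and 1 higher and 0 lower in embryo CD45+ cells. The list's median difference in yolk sac CD45- cells was 0.01, against 0.18 for all genes. Many of these genes also serve other cells.

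Xk, the partner of Kel, read −3.26 and −3.19 in yolk sac CD45- controls and −0.15 and −0.27 in transgenic cells, a rise of 3.02 (limma adjusted p = 8.1e-05) on arrays where Kel fell by 1.81. It rose by 2.99 in yolk sac CD45+ cells and by 1.75 in embryo CD45- cells (adjusted p = 0.03). The embryo call was lost with the array numbered 1 of the controls left out (1.26, adjusted p = 0.211), with either transgenic array left out (0.123 and 0.234) and on the embryo arrays alone (0.202). It also missed the threshold for the mean of its 2 probes (1.5, adjusted p = 0.119), and when any 1 of 6 yolk sac arrays was left out (0.0546 to 0.058). Ackr1, the chemokine-binding Duffy antigen, rose by 3.47 and 4.33 in the yolk sac CD45- and CD45+ cells. Art4, which carries the Dombrock antigen, rose by 1.34 and 2.99 there and by 2.06 in embryo CD45+ cells, the last short of the threshold on the 4 arrays of that population alone (adjusted p = 0.0768).

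Slc14a1, the urea transporter of the Kidd antigen, rose by 3.82 in embryo CD45- cells (limma adjusted p = 0.000282) and by 1.38 in yolk sac CD45- cells, but fell by 2.21 in yolk sac CD45+ cells. The yolk sac CD45- call was lost without control replicate 1 (0.99, adjusted p = 0.109) or transgenic replicate 1 (1.06, 0.108). Bcam, the laminin-binding Lutheran antigen, which endothelium also makes, fell by 3.83 and 2.33 in yolk sac CD45- and CD45+ cells, the second short of the threshold on its 4 arrays alone (adjusted p = 0.0769). The water channel Aqp1, also endothelial, fell by 1.81 in yolk sac CD45- cells and rose by 1.74 in yolk sac CD45+ cells.

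Among skeleton and inner-face genes, Epb41, which joins spectrin to actin, rose by 2.31 and 0.95 in yolk sac CD45- and CD45+ cells. These values are from its brightest probe. Fitted one by one, its other probes gave 0.95 and 1.64 in the CD45- cells. In the CD45+ cells they gave 0.50 and 0.56, and neither passed (limma adjusted p = 0.248 and 0.166). Add2, the beta adducin that caps the junction, fell by 1.79 in yolk sac CD45- cells (limma adjusted p = 0.0121), a call lost without control replicate 1 (0.0602) or transgenic replicate 1 (0.104). Mpp1, a scaffold at the same junction, fell by 1.26 and 2.63, and its 3 probes lay within 0.10 of each other in both. Stom, a raft protein, fell by 2.30 and 1.44, and the stretch-gated channel Piezo1 by 1.72 and 0.59. The Piezo1 call in CD45+ cells was lost when any 1 of the 4 arrays of that population was left out (adjusted p from 0.0567 to 0.124). Dmtn, which bundles actin, fell by 2.98 in yolk sac CD45+ cells by its brightest probe, while its second probe gave 0.14 there and −1.09 in yolk sac CD45- cells.

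**Figure D4:**
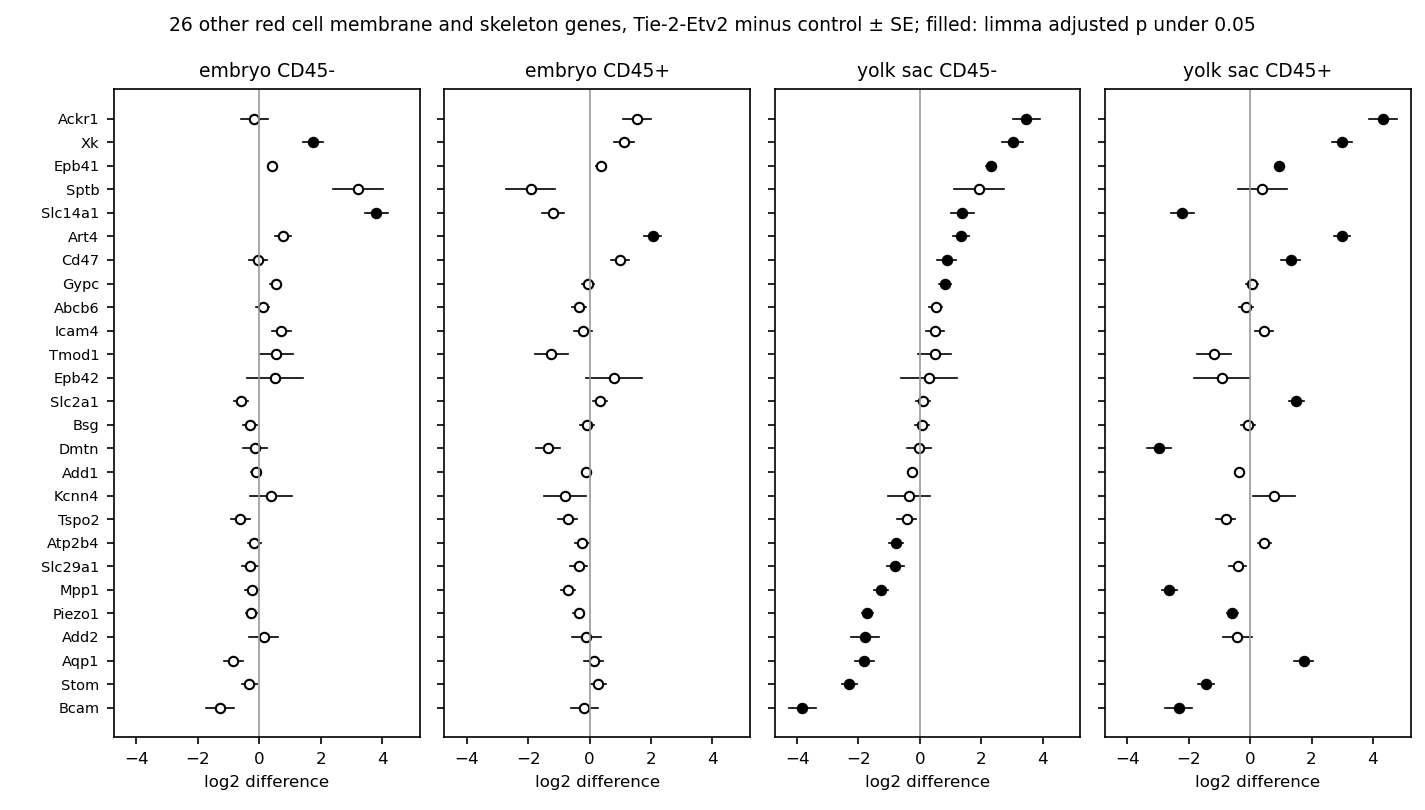
Points show the log2 difference of the mean levels, Tie-2-Etv2 minus control (horizontal axis), with bars of 1 SE for 26 of the 28 other red cell membrane and skeleton genes in the 4 populations, ordered by yolk sac CD45- cells and filled where the limma adjusted p was under 0.05. In yolk sac CD45- cells 7 are filled on the right, led by Ackr1 at 3.47, and 8 on the left, led by Bcam at −3.83.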

How the data were processed

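Per the file headers, the authors scanned single-colour Agilent arrays and deposited processed intensity values made with Feature Extraction 10.7, with background subtracted within each array. They also deposited a value table in log2, which follows the scanner values and is centred per probe within each tissue and gate. Its array differences correlated with those of the scanner values at 0.999975 or above, and it served as an alternative only. Its column medians ran from −0.183 to 0.175, and the origin of its shift per array is unknown. Spots of a probe were averaged, control and outlier spots were left out, and log2 values were scaled to each array's 75th percentile. A probe was kept where some group had it well above background on its 2 arrays (34126 probes), and the brightest stood for its gene. All 16 arrays were fitted together on 8 group means with limma 3.58.1 in R 4.3.3, two-sided, with Benjamini-Hochberg adjustment over 24579 genes at 0.05, and tested on simulated data. Probe coordinates are mm9, and symbols and promoters came from RefSeq tables (GRCm38.p6). Of the other 28 genes, at most 12 past the threshold were named, by the largest genotype difference. Others were named as background or as checks, and the values of a few listed genes are not reported here. The members and lists were chosen with earlier results of these data known. Precision is limited by 2 arrays per group.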

Additional observations from a re-analysis of the deposited data

How the results depend on the processing

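Direction held for Slc4a1, Kel and Rhd in yolk sac CD45- cells under all 11 alternatives of scaling, filter, probe choice, samples and block, and in every fit with 1 array left out. Most of these could not have changed it. Filter, probe choice, samples, prior and block leave the difference of group means as it is for genes with 1 probe. Where groups do not overlap, leaving out 1 array cannot reverse the sign. Only a change of scaling, background correction or value table could have done so. With no filter on dim probes 1 of the 6 genes was called lower there in place of 3, and with 1 array left out the count lay between 0 and 3. The count called higher there lay between 0 and 1 with 1 array left out, as Ermap's brightest probe passed (adjusted p = 0.0315) without either yolk sac CD45+ control array. In yolk sac CD45+ cells 1 gene was called higher, Rhag, on the yolk sac arrays alone. Same-numbered arrays were not treated as pairs, as no label ties them. Correlations of their deviations were above 0 in all 6 pairs of embryo groups. They exceeded 0.1 in 3 of these and in 1 of 6 pairs of yolk sac groups. Between the gates of the same tissue and genotype they were 0.385 in embryo controls and 0.222 in embryo transgenic cells. In the yolk sac they were 0.032 in controls and 0.372 in transgenic cells. Whether such arrays share a source was not tested, and the main fit takes no account of it. The replicate block called 1 gene higher (Rhag) and 2 lower (Slc4a1, Rhd) in yolk sac CD45+ cells, and 3 lower (Slc4a1, Rhag, Rhd) in CD45+ against CD45- yolk sac controls. The latter comparison called 0 to 1 higher (Ermap) with 1 array left out. For these counts of members, 306 of 320 values under an alternative were within 1.5 times the main count. This includes 2 in place of 3 where Kel alone was lost. Apart from the 3 called lower in yolk sac CD45- cells, every main count was 0. Most of the 306 values thus compare 0 with 0 and do not bear on how stable the count of 3 is. With 2 arrays per group, differences near 3-fold lie at the edge of detection for these genes. The causes of the changes were not tested.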

Other observations

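The heme pathway divided in yolk sac CD45- transgenic cells. Among the enzymes that turn aminolevulinic acid into heme, levels were higher for Alad (1.12), Uros (0.98), Urod (1.05), Cpox (1.13) and Fech (0.54), and lower for Ppox (−0.90), all past the limma threshold. The transferrin receptor Tfrc was also higher (1.45), and the mitochondrial iron carrier Slc25a37 lower (−0.91, adjusted p = 0.0285). In yolk sac CD45+ cells Alad (0.91) and Cpox (0.82) were higher and Ppox lower (−1.20), while Tfrc gave −0.53 and did not pass. Of the 15 genes of this list none passed in either embryo gate. Of all genes 26.1% were higher and 15.8% lower in yolk sac CD45- cells, and 18.1% and 14.4% in yolk sac CD45+ cells. The heme and iron calls given here were not refitted under the alternatives or with an array left out. In yolk sac CD45- cells, scaling on detected probes moved the median difference of all genes from 0.18 to −0.14.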
